A study of Mus musculus with 22 samples.

Results

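Nodal, its inhibitors Lefty1 and Lefty2, its co-receptor Tdgf1 and the primitive streak genes T, Mixl1, Gsc, Fgf8 and Wnt3 were followed across mouse embryonic stem cells exposed to 10 compounds that act on chromatin. They were chosen by name as genes of the Nodal pathway and of the streak, with earlier results of these data known. All 9 were found among the 18487 genes of the deposited table. Poly(A)-selected RNA of the E14 line was sequenced in 22 libraries, 2 for each compound and 2 for a group labelled NC, which was the reference here because its label names no compound. The study's methods describe serum and LIF culture for E14 cells, and its text deals with knockdowns of chromatin regulators rather than with these compounds. The labels gave no dose, no exposure time and no statement that the 2 libraries of a group came from separate cultures, so a p-value measures the spread between these libraries, which may be technical.

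Every group was the same cell line, and the compound is the only difference between groups that the labels give. Bromosporine binds bromodomains, which read acetylated lysine. CPTH2 and Garcinol act against the enzymes that acetylate histones, and Valproate against those that remove the acetyl groups. Several of the others act on methylation. Chaetocin targets lysine methyltransferases of histones, UNC0379 the methyltransferase SETD8, and MS023 the type I arginine methyltransferases. DZNep stops the breakdown of S-adenosylhomocysteine, a product that holds back methyltransferases of many kinds, and IOX1 is an inhibitor of demethylases and related oxygenases dependent on 2-oxoglutarate. OICR is given only as the labels give it.

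Nodal is a secreted ligand of the TGF-beta family. It acts through activin receptors together with the co-receptor Tdgf1 (also called Cripto), and the receptors phosphorylate SMAD proteins that enter the nucleus and switch on target genes. Lefty1 and Lefty2 are secreted inhibitors of Nodal and are themselves targets of Nodal signalling, which closes a negative feedback loop. In the embryo the pathway sets up the primitive streak, where T, Mixl1, Gsc, Fgf8 and Wnt3 are expressed. Embryonic stem cells in culture express Nodal, Tdgf1 and both Lefty genes without forming a streak.

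The clearest change fell on the inhibitors. Lefty1 and Lefty2 both fell with Bromosporine and with DZNep, each by about 8- to 9-fold, and Lefty2 also fell with Valproate. Nodal itself passed the test with no compound. Fgf8 fell and Wnt3 rose with DZNep, both from low values. No member was called with any of the other 7 compounds.

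Lefty1 and Lefty2 lie near each other on the plus strand of chromosome 1, Lefty2 at chr1:180893108-180899103 and Lefty1 at chr1:180935022-180938400 (GRCm38, which is mm10; GENCODE M21), with 35918 bases between them. Their coding sequences are of equal length, 1104 bases, and are 91.8% identical in an alignment without gaps. A read lying wholly within an identical stretch could not be assigned to one of them by sequence alone. The longest such stretch in the coding sequence is 140 bases, and the paired reads that the study's methods give for its RNA-seq are longer. Of the 31-base words of the longest Lefty1 transcript, 25.0% occur in transcripts of other genes, in each case of Lefty2, and for Lefty2 the share is 17.6%. Shares of such short words do not measure how many read pairs are ambiguous.

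Values below are the deposited normalised read counts, which the authors brought to 1 common distribution over libraries and rounded, and each is given for replicate 1 and then replicate 2. Changes are differences of log2(value + 1), compound minus NC, from a single limma fit of all 22 libraries, with Benjamini-Hochberg adjustment over the 17275 genes tested. Calls required a fold change above 2 together with an adjusted p below 0.05. All 9 members were among the genes tested. With 2 libraries per group, a pair wholly above or below both NC libraries was common over all genes tested. The share was 58.9% with DZNep, 50.6% with Valproate, 49.4% with Bromosporine, 45.4% with MS023 and 43.7% with IOX1. It was 40.1% with OICR, 34.8% with UNC0379, 33.9% with Chaetocin, 33.7% with Garcinol and 16.2% with CPTH2. Changes on this scale understate the fold of genes with values near the pseudocount of 1.

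In NC, Lefty1 stood at 669 and 1001. The Bromosporine libraries held 48 and 167, and the DZNep libraries 92 and 113. All 4 libraries of these compounds lay below every other library in the series, whose lowest Lefty1 value was 330, in MS023. Lefty1 changed by -3.17 with Bromosporine (SE 0.48, limma adjusted p = 0.00233) and by -2.99 with DZNep (SE 0.48, limma adjusted p = 0.000684), 9.03-fold and 7.96-fold lower.

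The NC libraries held 1761 and 3240 for Lefty2, the Bromosporine libraries 175 and 449, and the DZNep libraries 320 and 241. Valproate gave the next lowest pair, 869 and 808, again below both NC libraries. Lefty2 changed by -3.09 with Bromosporine (SE 0.43, limma adjusted p = 0.00145), by -3.10 with DZNep (SE 0.43, limma adjusted p = 0.000253) and by -1.51 with Valproate (SE 0.43, limma adjusted p = 0.0404). The folds were 8.49, 8.57 and 2.85. The Valproate call was lost when any 1 of the 4 Valproate and NC libraries was left out, with a change between -0.97 and -1.95 over the alternatives run. Lefty1 with Valproate was at 458 and 460, below both NC libraries, with a change of -0.83 (95% interval -1.87 to 0.21, limma adjusted p = 0.306) that did not pass. MS023 (495 and 330) and OICR (588 and 430) also held Lefty1 below both NC libraries. Their changes, -1.02 (95% interval -2.06 to 0.02) and -0.70 (95% interval -1.74 to 0.34), were not called (limma adjusted p = 0.349 and 0.709).

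The upper end of the order differed between the pair, with Chaetocin, IOX1 (974 and 1407) and UNC0379 (736 and 1009) highest for Lefty1 and UNC0379 and Chaetocin for Lefty2. Lefty1 reached 1270 and 2321 with Chaetocin, above both NC libraries, and the change of 1.07 (95% interval 0.03 to 2.11, limma adjusted p = 0.803) was not called. Lefty2 was at 3692 and 4348 with Chaetocin and at 4486 in both UNC0379 libraries, an equality of the kind that normalisation to a common distribution produces. Their changes, 0.75 (95% interval -0.19 to 1.68) and 0.91 (95% interval -0.02 to 1.84), were not called. CPTH2, Garcinol and IOX1 left Lefty2 between 1925 and 2863, inside the NC range, and MS023 and OICR between 1240 and 2520, which overlapped it.

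**Figure D1:**
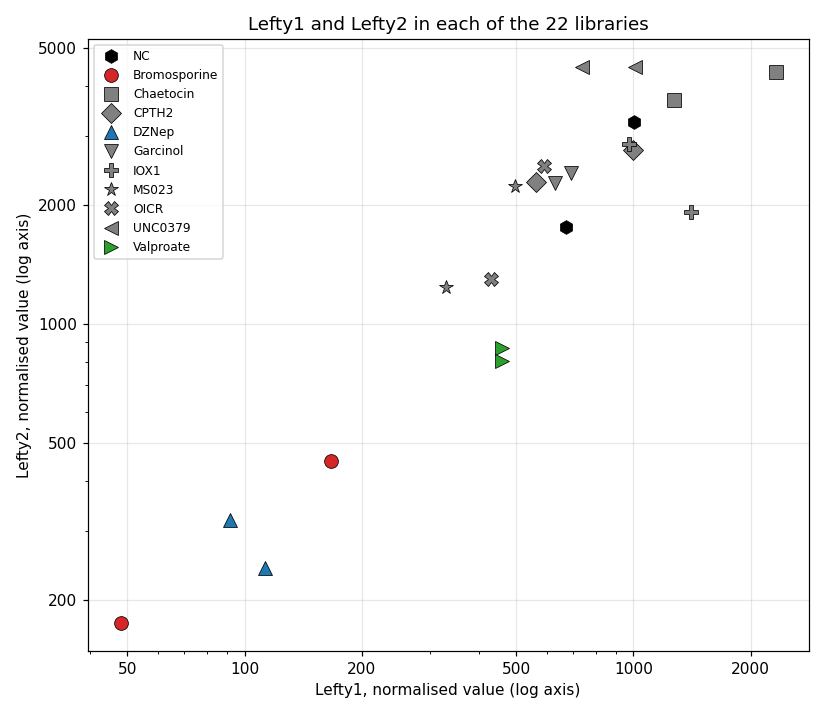
Normalised values of Lefty1 (horizontal, log axis) and Lefty2 (vertical, log axis) in each of the 22 libraries, with 1 symbol per group. The Bromosporine libraries (48 and 167 for Lefty1) and the DZNep libraries (92 and 113) sit at the lower left. The Valproate libraries stand between them and the rest on the Lefty2 axis (869 and 808). On the Lefty1 axis Valproate (458 and 460) overlaps MS023 (495 and 330) and OICR (588 and 430).

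The inhibitors moved together across the series. Over the 22 libraries Lefty2 was the gene most like Lefty1, with Pearson's r of 0.940 on log2(value + 1) after the mean of each replicate number had been subtracted, among 14320 tested genes with a group mean of at least 100. Next in likeness were Camk1d for Lefty1 (r = 0.894) and Itgal for Lefty2 (r = 0.936). These correlations describe libraries that share groups and, for the Lefty pair, part of their sequence. Per kilobase of the longest transcript, Lefty2 was the higher of the pair in 21 of 22 libraries, with a ratio of Lefty2 to Lefty1 from 0.896 in IOX1 replicate 2 through a median of 2.05 to 3.99 in UNC0379 replicate 1.

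The compounds were then compared directly with each other. Lefty1 was lower with Bromosporine than with 8 of the 9 other compounds, by 2.16 to 4.24 on the log2 scale, and lower with DZNep than with 8 of 9, by 1.98 to 4.06 (limma, Benjamini-Hochberg adjusted p at most 0.0188 and 0.00981). The pair left over was Bromosporine and DZNep themselves, which differed by -0.18 in Lefty1 (SE 0.48) and by 0.01 in Lefty2 (SE 0.43). The same held for Lefty2, where the called differences were at least 1.58 for Bromosporine and 1.59 for DZNep. Lefty2 with Valproate was higher than with Bromosporine and DZNep and lower than with 5 others, and its differences from MS023 and OICR were not called. Over the 45 pairs of compounds, 4.24% of all gene and pair combinations were called, and p-values were adjusted within each pair and not over the pairs. Of the 45 called differences among the members, 18 were in Lefty1, 21 in Lefty2, 3 in Fgf8 and 1 each in Nodal, T and Wnt3.

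Genes around the Lefty pair were looked at by position, a set chosen after the Lefty values were known. The table held 10 other genes within 200 kb of the pair, Mixl1 among them. Tmem63a, the next gene beyond Lefty1, fell from 242 and 347 in NC to 88 and 75 with Bromosporine (log2 change -1.82, SE 0.17, limma adjusted p = 0.000123) and rose to 1114 and 1121 with DZNep (1.94, SE 0.17, limma adjusted p = 1.07e-05). Ephx1, an epoxide hydrolase, rose with DZNep from 717 and 550 to 2430 and 2498 (1.97, SE 0.38, limma adjusted p = 0.00219) and with Valproate to 1825 and 1281 (1.28, SE 0.38, limma adjusted p = 0.0461), the latter a call lost without any 1 of the 4 libraries concerned. The remaining neighbours were called with none of these 3 compounds, and Tmem63a with Bromosporine was the only neighbour called in the direction of the Lefty genes.

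**Figure D2:**
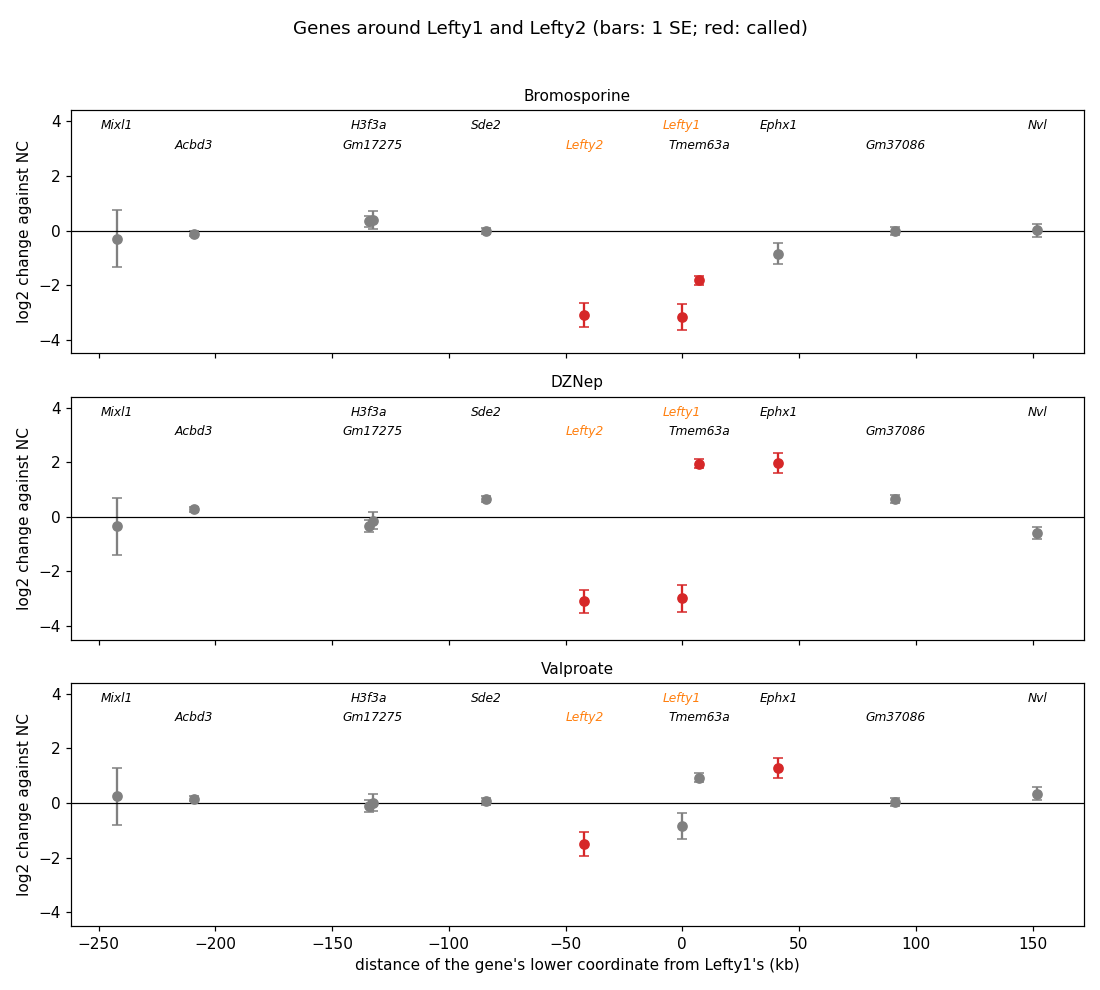
Log2 change against NC (vertical, bars 1 SE) of Lefty1, Lefty2 and neighbouring genes by distance in kb from Lefty1 (horizontal), for Bromosporine, DZNep and Valproate, with called genes in red. Both Lefty genes lie near -3 with Bromosporine and DZNep, while Tmem63a lies at -1.82 with Bromosporine and at 1.94 with DZNep.

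The ligand was called with no compound against NC. Nodal (chr10:61417972-61425338, plus strand) was at 1490 and 1955 in NC. Its values were 838 and 1551 in the Bromosporine libraries, 2897 and 2502 in the DZNep libraries and 885 and 1887 in the Valproate libraries. The DZNep libraries lay above both NC libraries, and the Bromosporine and Valproate pairs overlapped them. With DZNep, 58.9% of all genes tested did not overlap NC, in either direction. The changes were -0.58 with Bromosporine (95% interval -1.50 to 0.34), 0.66 with DZNep (-0.26 to 1.58) and -0.40 with Valproate (-1.32 to 0.52), none of them called. OICR also held Nodal above NC, at 2263 and 2538 (log2 change 0.49, 95% interval -0.43 to 1.41). In replicate 2, Nodal was higher with IOX1 (2681) and OICR (2538) than with DZNep (2502). With DZNep the Lefty genes fell while Nodal had its highest group mean, and with Bromosporine they fell while Nodal had its lowest. Neither of these Nodal changes against NC was called. Between these compounds Nodal differed by -1.24, Bromosporine minus DZNep (SE 0.43, limma adjusted p = 0.0450), a call that was lost without Bromosporine replicate 1 (-0.80), DZNep replicate 1 (-1.13) or DZNep replicate 2 (-1.34). In 10 of 11 groups the Nodal value of replicate 2 exceeded that of replicate 1, DZNep being the exception.

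Tdgf1 (chr9:110939603-110946158, minus strand) had the highest level per kilobase of the 9 members. The NC libraries held 25722 and 15640 and the DZNep libraries 11541 and 8477, the lowest pair in the series. The DZNep libraries lay below all 20 others, whose lowest value was 13845, in Valproate. The change with DZNep was -1.02 (SE 0.43, 95% interval -1.94 to -0.10, limma adjusted p = 0.103) and was not called. With the other 9 compounds it lay between -0.24 and 0.15. Replicate 1 exceeded replicate 2 in 11 of 11 groups, and this spread enters the SE. Within replicate numbers Tdgf1 changed with DZNep by -1.16 and by -0.88, so whether it is called depends on how the spread between the numbers is treated. Of the 31-base words of Tdgf1, 17.4% occur in transcripts of other genes, chiefly the pseudogene Tdgf1-ps1, so its level may hold reads of that copy.

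**Figure D3:**
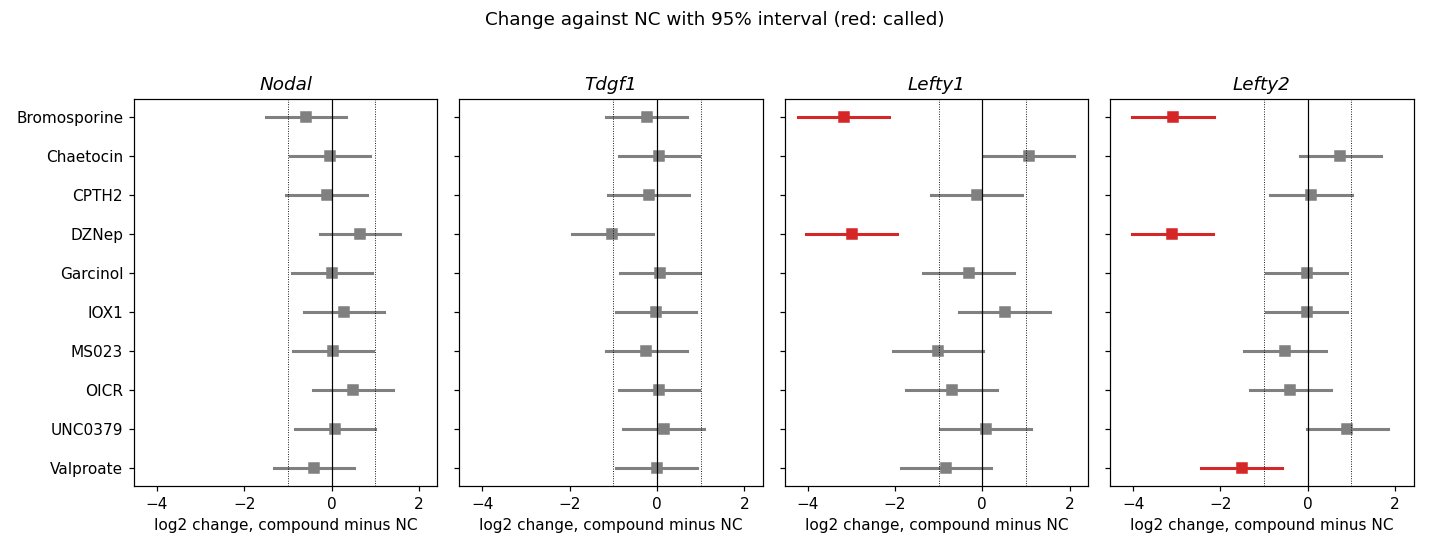
Log2 change against NC (horizontal) with its 95% interval for Nodal, Tdgf1, Lefty1 and Lefty2 with each of the 10 compounds (vertical), called changes in red and dotted lines at a 2-fold change. Only Lefty1 and Lefty2 have red intervals, at -3.17 and -3.09 with Bromosporine, at -2.99 and -3.10 with DZNep, and for Lefty2 at -1.51 with Valproate.

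The streak genes fell into a member at a moderate level and 4 at low values. Gsc (chr12:104471209-104473330, minus strand), a homeobox gene of the anterior streak and organizer, ranged only from 561 in MS023 replicate 2 to 1044 in DZNep replicate 2, with 1007 and 856 in NC. Its changes ran from -0.47 with Chaetocin to 0.15 with UNC0379, none called, and every 95% interval lay within a 2-fold change of NC on either side. Of the 9 members it varied least.

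T (chr17:8434423-8442496, plus strand), also known as Brachyury and the founding member of the T-box family, was at 28 and 22 in NC. It was highest in the first library of UNC0379 (125 and 36), Chaetocin (118 and 30) and Valproate (71 and 28), and lowest with MS023 (12 and 9). Both UNC0379 and both Chaetocin libraries lay above NC, with changes of 1.40 (SE 0.69) and 1.23 (SE 0.69), and both MS023 libraries lay below it (-1.18, SE 0.69). None was called (limma adjusted p = 0.849, 0.803 and 0.469). T was higher with UNC0379 than with DZNep by 2.10 (SE 0.69, limma adjusted p = 0.0461), a difference that shrank to 1.22 and lost its call without UNC0379 replicate 1, and that was also lost without either DZNep library.

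Mixl1 (chr1:180693043-180697034, minus strand), a homeobox gene of the streak and its endoderm and mesoderm, stayed between 1 and 33 and was at 12 and 27 in NC. Its 2 libraries differed as widely within groups, for instance 1 and 30 with UNC0379, as any groups differed from each other. The intervals of its changes were correspondingly wide, for DZNep -2.61 to 1.91, and changes within such a span were not detectable with these libraries.

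Fgf8 (chr19:45736798-45742915, minus strand), a growth factor that mesoderm needs to leave the streak, was at 15 and 11 in NC, and the DZNep libraries held 2 and 4. With DZNep it fell by 1.84 on the log2 scale (SE 0.61, limma adjusted p = 0.0421). UNC0379, at 2 and 6, came close in value (-1.60, 95% interval -2.90 to -0.29) and was not called (limma adjusted p = 0.786). Both libraries lay below NC with 7 of the 10 compounds. Of all genes, 16.2% (CPTH2) to 58.9% (DZNep) did not overlap NC, in either direction. Direct differences of DZNep from Bromosporine, Chaetocin, CPTH2, IOX1, OICR and UNC0379 were not called. Compared directly, Fgf8 was lower with DZNep than with Garcinol (13 and 14), MS023 (14 and 22) and Valproate (19 and 10), by 1.90, 2.26 and 1.94 (limma adjusted p = 0.0392, 0.0163 and 0.0344), each a call that leaving out a library could end, DZNep replicate 1 among them in all 3. The call against NC was lost without DZNep replicate 1 or either NC library and when p-values were adjusted over all 10 contrasts (limma adjusted p = 0.153). With a pseudocount of 10 the change was -0.82 and no longer past a 2-fold change. Fgf8 reached the minimum value of 10 in 8 of 22 libraries, so it and Wnt3 were tested close to the lower limit of the filter.

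Wnt3 (chr11:103774150-103817957, plus strand), the WNT ligand that the embryo needs to form a streak, was at 4 in both NC libraries. NC had the lowest mean of the 11 groups. With 6 of the 10 compounds both libraries lay above NC. Of all genes, 16.2% (CPTH2) to 58.9% (DZNep) did not overlap NC, in either direction. The DZNep libraries held 14 and 28 and the Valproate libraries 29 and 18. All 4 libraries of these compounds lay above the 18 others, whose highest value was 12, in Bromosporine. The rise with DZNep was called (2.06, SE 0.71, limma adjusted p = 0.0494), and the slightly larger one with Valproate was not (2.26, SE 0.71, limma adjusted p = 0.0591). The difference between these compounds, -0.19 for DZNep minus Valproate (SE 0.71), was not called, and no difference between DZNep and another compound was called. Valproate exceeded MS023, where Wnt3 was at 8 and 2 (limma adjusted p = 0.0462), a call lost without MS023 replicate 2 or either Valproate library. The DZNep call was lost when any 1 of the 4 DZNep and NC libraries was left out and on adjustment over all 10 contrasts (limma adjusted p = 0.172), and with a pseudocount of 10 the change was 1.11. Wnt3 reached 10 in 6 libraries.

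Tdgf1 and Wnt3 mark the ends of the scale, at 10700 and 1.30 NC units per kilobase of longest transcript, and with DZNep they moved in opposite directions, although only Wnt3 was called. The DNA in front of them differs in its content of CG. Of the members, 5 (Nodal, Tdgf1, T, Gsc and Wnt3) had a promoter in the RefSeq table (GRCm38.p6). For the pair, the stretch from 250 to 51 bases before the RefSeq start is printed. For Wnt3 and Gsc that start differs from the GENCODE position given above. The stretches run 5′ to 3′ in the direction of the gene, Tdgf1 at chr9:110946209-110946408 and Wnt3 at chr11:103773925-103774124, with the dinucleotide CG in capitals.
Tdgf1: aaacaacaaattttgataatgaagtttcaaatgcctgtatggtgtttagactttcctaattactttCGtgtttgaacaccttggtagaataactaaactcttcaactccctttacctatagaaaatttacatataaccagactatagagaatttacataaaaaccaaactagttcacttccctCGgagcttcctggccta
Wnt3: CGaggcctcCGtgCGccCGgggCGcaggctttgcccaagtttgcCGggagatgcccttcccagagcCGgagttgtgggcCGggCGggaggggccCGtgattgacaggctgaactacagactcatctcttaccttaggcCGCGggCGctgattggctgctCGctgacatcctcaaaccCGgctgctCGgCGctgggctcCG

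The Tdgf1 stretch holds 2 CG dinucleotides and the Wnt3 stretch 18. Nodal has 3, T 11 and Gsc 13, against a median of 4 over 32851 promoter windows of this length. With DZNep, Nodal changed by 0.66, T by -0.70 and Gsc by -0.19, none of them called. As many CG as in Wnt3, or more, were found in 12.4% of them, and as many as in Tdgf1, or more, in 75.4%. CG reads the same on both strands. The count describes the sequence, its relation to the changes was not tested, and no methylation was measured here.

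**Figure D4:**
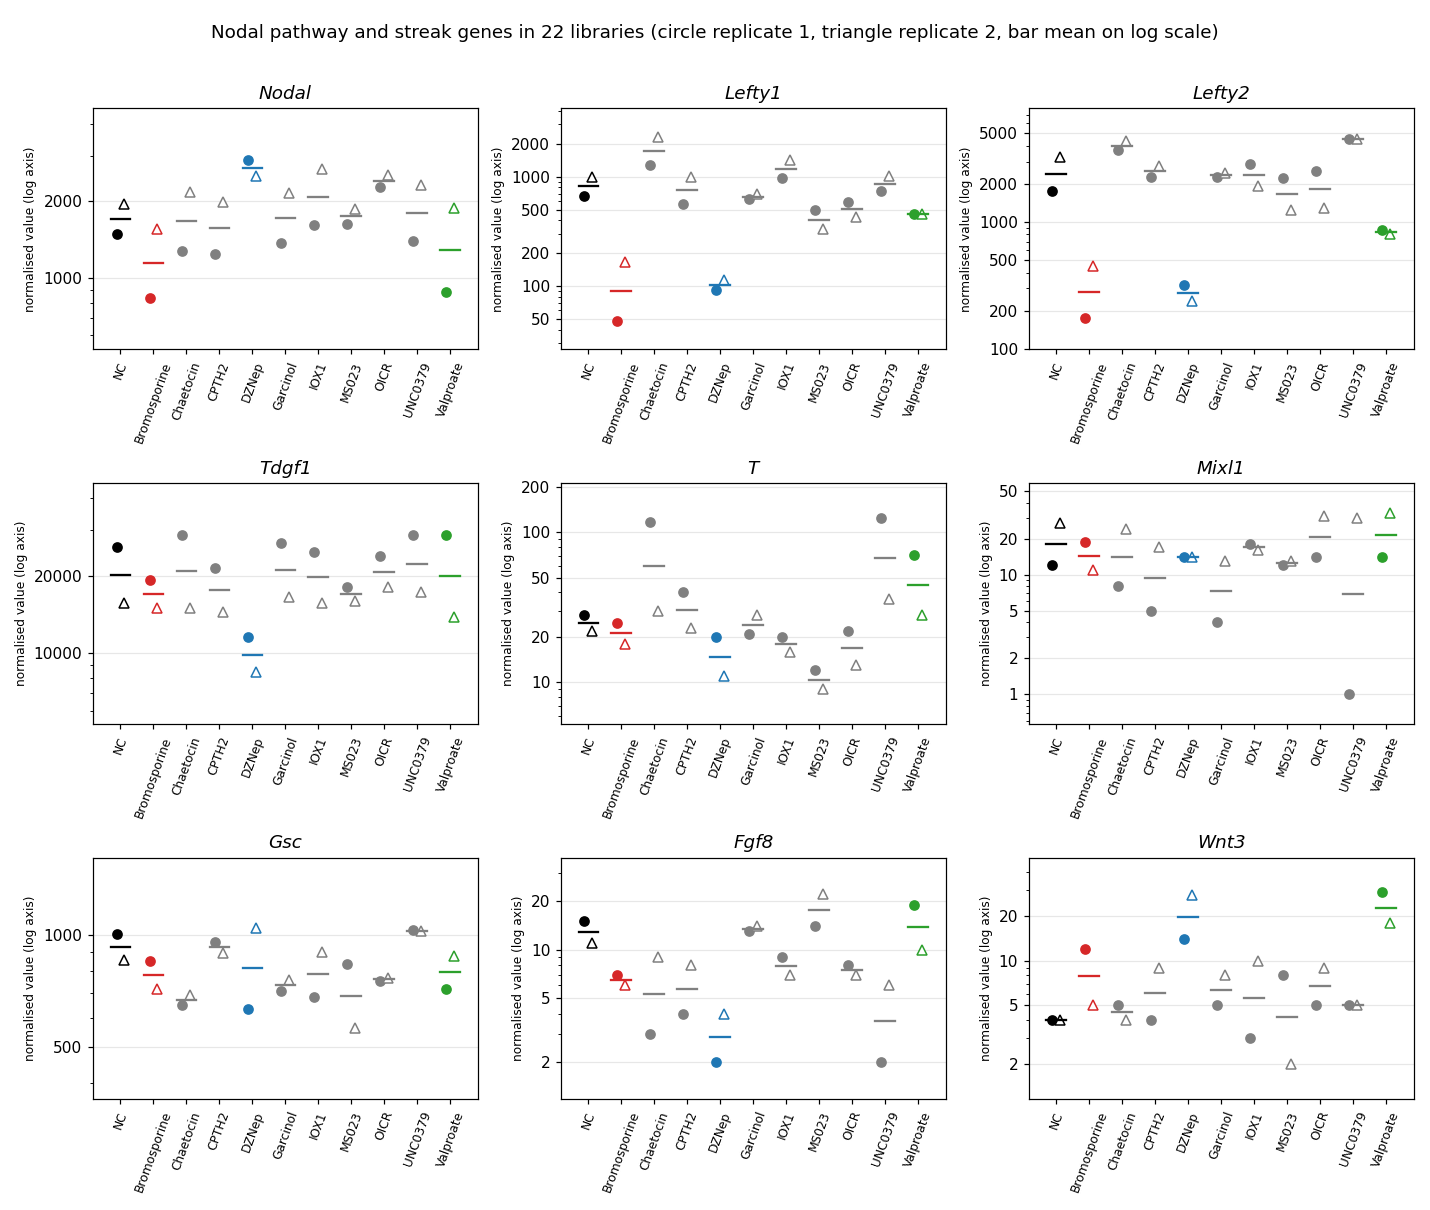
Normalised value (vertical, log axes that differ between panels) of each of the 9 genes in the 11 groups, circles for replicate 1, triangles for replicate 2 and bars for the mean on the log scale. Bromosporine is red, DZNep blue, Valproate green and NC black. Lefty1 and Lefty2 stand far below NC with Bromosporine and DZNep, Wnt3 stands above it with DZNep and Valproate, and the paired symbols of Tdgf1 show replicate 1 above replicate 2 in every group.

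The calls among the members were set beside those over all genes tested. DZNep called 4 of 9 members, 3 falling and 1 rising, where 11.4% of all tested genes were called, 6.14% falling and 5.27% rising. Bromosporine called 2 of 9, both falling, against 3.34% of all genes, 2.77% falling and 0.573% rising. Valproate called 1 of 9, falling, against 5.28% of all genes, 2.55% falling and 2.73% rising. With so few members, chosen with earlier results of these data known, these counts say little beyond the genes named.

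The other 7 compounds called 0 of 9 members, and they called few genes in all. The shares of all tested genes were 0.973% with MS023, 0.388% with OICR, 0.116% with IOX1, 0.0174% with Chaetocin, 0.00579% with CPTH2 and 0.00579% with Garcinol. With UNC0379 it was 0%. There 1051 genes, 6.08% of those tested, had an unadjusted limma p under 0.05, little above the share that this threshold passes without any effect. The largest changes of members with these compounds were those of Fgf8 and T with UNC0379 given above. Asked without choosing a compound, by limma's F test over the 11 groups, 2 of 9 members varied at an adjusted p under 0.05, Lefty2 (limma adjusted p = 0.000142) and Lefty1 (limma adjusted p = 0.000389), where 29.7% of all genes did. The next were Fgf8 (limma adjusted p = 0.0907) and T (limma adjusted p = 0.101). This result depends on the fit. With the replicate number as a block, Tdgf1, T, Nodal and Fgf8 varied too (limma F test, adjusted p = 0.00289, 0.00665, 0.0171 and 0.0458). The share of all genes varying under the block is not given here. The 10 contrasts share the NC libraries and so are not independent of each other.

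Outside the Lefty pair, the genes most like each member over the 22 libraries, by the same measure, were Wdr54 (r = 0.885) and Klhdc8b (0.868) for Nodal, and Hook1 (0.907) and Glb1 (0.877) for Tdgf1. For Wnt3 they were Alad (0.877) and Snrpf (0.872), and for Fgf8 Als2cl (0.824) and Rab3d (0.815). T was most like Gm44562 (0.808) and Slc9a8 (0.800), Gsc like Gstcd (0.704) and Gmps (0.692), and Mixl1 like Il1rap (0.654). The candidates needed a group mean of at least 100, which T, Mixl1, Fgf8 and Wnt3 never reach, so these 4 could not appear among them. Among the members themselves, Tdgf1 correlated with Lefty1 at 0.64 and with Lefty2 at 0.65, and Nodal with Lefty1 at 0.10 and with Lefty2 at 0.13.

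The wider pathway was read from 52 further genes in 5 lists, covering ligands and convertases, receptors and co-receptors, SMADs and nuclear partners, antagonists and feedback, and mesendoderm and streak, of which 42 were tested. DZNep called 10 of them, 3 rising and 7 falling. Valproate called 7, with 1 rising and 6 falling, Bromosporine 3, with 1 rising and 2 falling, and OICR 1, falling. The other 6 compounds called 0 of the 42. Over all genes tested the shares called were 11.4% with DZNep, 5.28% with Valproate, 3.34% with Bromosporine and 0.388% with OICR, as given above. These lists, too, were chosen with earlier results of these data known. The median change over the 42 was -0.03 with DZNep, -0.19 with Valproate and -0.17 with Bromosporine, against -0.04, -0.02 and 0.01 over all genes tested.

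Of 7 receptors and co-receptors listed, 5 were tested and 0 were called with any compound. Of the SMADs and their partners only Skil, a repressor of SMADs that the pathway itself induces, was called, falling with DZNep from 1389 and 1175 to 675 and 478 (-1.17, SE 0.17, limma adjusted p = 0.000324). Among ligands, Gdf1, which pairs with Nodal, fell with DZNep from 147 and 72 to 22 in both libraries (-2.18, SE 0.57, limma adjusted p = 0.0141), a call lost without DZNep replicate 1 or NC replicate 1. Tgfb1 also fell with DZNep (-1.21) and Gdf3, another partner of Nodal signalling, with Valproate (-1.01). Skil, Tgfb1 and Gdf3 fell outside the 12 genes with the largest changes and are named although the naming rule did not take them. Their calls were lost without DZNep replicate 2 for Skil, NC replicate 2 for Tgfb1, and Valproate replicate 1 or NC replicate 2 for Gdf3.

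Among the antagonists, Chrd, a secreted inhibitor of BMP, fell from 454 and 367 to 158 and 160 with DZNep (-1.35, SE 0.23, limma adjusted p = 0.00106) and to 225 and 184 with Valproate (SE 0.23, limma adjusted p = 0.0148). The Valproate call, at a fold just past the limit, was lost without Valproate replicate 2 or NC replicate 1. Nog, likewise a BMP inhibitor, fell from 26 and 12 to 1 in both OICR libraries (-3.23, SE 0.59, limma adjusted p = 0.0283). That change rests on values near the pseudocount, and it was not called with a pseudocount of 10, nor without either OICR library or NC replicate 1.

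The mesendoderm and streak list moved in both directions. Eomes, a T-box gene of the streak, rose where Lefty1 and Lefty2 fell. It went from 129 and 119 to 331 and 298 with Bromosporine (1.33, SE 0.33, limma adjusted p = 0.0323) and to 356 and 199 with DZNep (1.10, SE 0.33, limma adjusted p = 0.0270). The Bromosporine call was lost without any 1 of the 4 libraries concerned, and the DZNep call without DZNep replicate 1 or either NC library.

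Snai1, a repressor that acts in the epithelial to mesenchymal transition of the streak, rose with DZNep from 20 and 28 to 329 and 269 (3.60, SE 0.79, limma adjusted p = 0.00527), and Mesp2, a gene of the paraxial mesoderm, from 36 and 30 to 118 and 83 (1.56, SE 0.36, limma adjusted p = 0.00656). Both were called with DZNep alone of the 10 compounds. The Mesp2 call was lost without DZNep replicate 1.

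Fgf17, a relative of Fgf8, fell with DZNep from 874 and 805 to 235 and 165 (-2.09, SE 0.34, limma adjusted p = 0.000692) and with Valproate to 42 and 41 (-4.30, SE 0.34, limma adjusted p = 1.46e-05). Cdx1, a caudal homeobox gene, fell from 1773 and 1006 to 37 and 116 with DZNep (-4.33, SE 0.87, limma adjusted p = 0.00299) and to 145 and 167 with Valproate (-3.09, SE 0.87, limma adjusted p = 0.0380). The Cdx1 call with Valproate was lost without any 1 of the 4 libraries.

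With Valproate, Sp5, a target of WNT signalling, rose from 376 and 390 to 2216 and 2141 (2.50, SE 0.32, limma adjusted p = 0.000415), while Otx2 fell from 404 and 338 to 82 and 206 (-1.50, SE 0.45, limma adjusted p = 0.0491), a call lost without Valproate replicate 1 or either NC library. Hand1 was called with Bromosporine, where it is listed at 0 in both libraries against 9 and 4 in NC, and no fold is given for it. Leaving out any 1 of these 4 libraries ended the call.

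**Figure D5:**
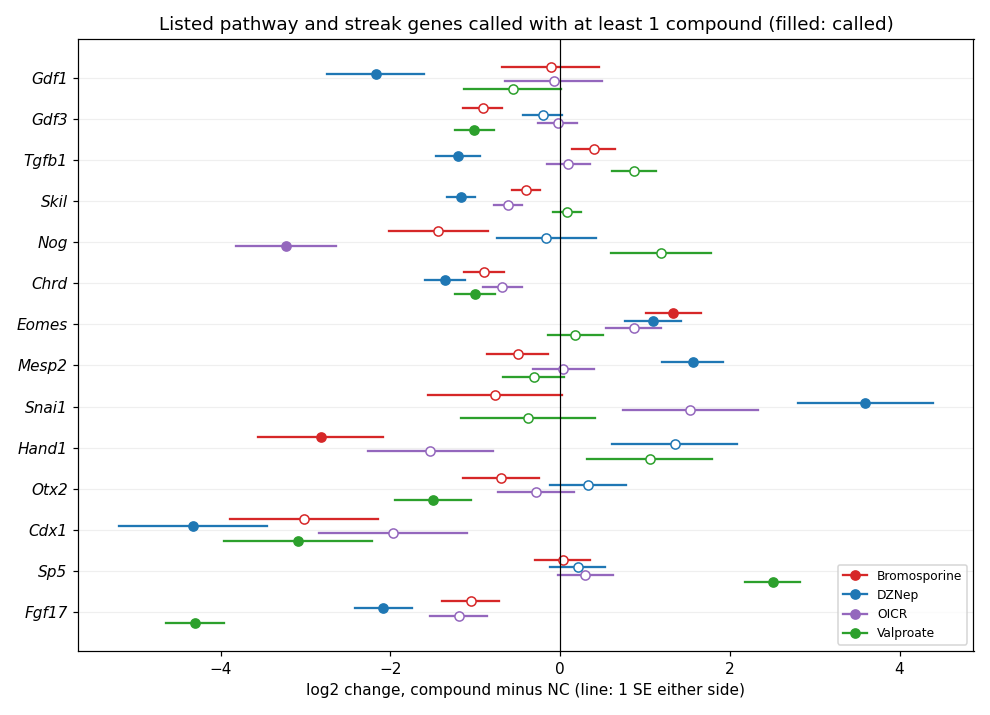
Log2 change against NC (horizontal, lines 1 SE on either side) of listed genes called with at least 1 compound (vertical), for Bromosporine, DZNep, OICR and Valproate, filled where called. The size of the Hand1 point with Bromosporine depends on the pseudocount, since its values there are 0. Eomes is filled and right of 0 for Bromosporine and DZNep (1.33 and 1.10).

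The identity of the cells was checked with marker genes. Pou5f1 (25663 to 39262), Nanog (31970 to 123367) and Sox2 (10935 to 18762), which define embryonic stem cells, were high in all 22 libraries. The summed value of 10 stem cell markers was 194021 and 202950 for NC, 232777 and 217956 for Bromosporine, 276046 and 286541 for DZNep and 209118 and 231494 for Valproate, so the DZNep libraries held the highest sums. In NC, Nanog (44793 and 59405) and Dppa5a (41903 and 39262) were the largest parts. Of the 10 markers, DZNep called 3 rising, and Bromosporine, OICR and Valproate 1 each, rising, with 0 falling. The shares over all genes follow.

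Markers of other cell types moved as well. Over all genes tested, the shares called were 11.4% with DZNep, 5.28% with Valproate, 3.34% with Bromosporine, 0.973% with MS023 and 0.388% with OICR. Of 5 fibroblast markers tested, DZNep called 2 rising, Col1a1 from 24 in both NC libraries to 327 and 228 and Thy1 from 12 and 11 to 66 and 64. Valproate called Thy1 rising, to 358 and 303, and Bromosporine called Col1a1 falling, to 7 and 6. The 6 fibroblast markers summed to 528 and 1368 in NC, 682 and 613 with Bromosporine, 1612 and 1874 with DZNep and 1357 and 1091 with Valproate. Postn (474 and 559) and Col3a1 (4 and 743) made up most of the NC sums, and Dcn was listed at 0 in all 22 libraries.

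Of 4 neuroectoderm markers tested, DZNep called 2 falling, Valproate 1 falling and MS023 1 falling. The sums were 2353 and 2193 for NC, 2020 and 2049 for Bromosporine, 966 and 800 for DZNep and 1877 and 1909 for Valproate. Of 6 primitive endoderm markers tested, DZNep called 2 rising and 1 falling and Valproate 1 rising, with median changes of 0.96 and 0.19. Their sums, 9401 and 5923 for NC, 9754 and 5426 for Bromosporine, 7083 and 5136 for DZNep and 12702 and 8025 for Valproate, consist mostly of Lama1 and do not show these changes.

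Of 5 trophoblast markers tested, DZNep called 2 rising, with a median change of 1.35, and Valproate called 0. Bromosporine called 1 falling, which is Hand1 again, the call near 0 given above for the streak list. The median change of the 5 markers with Bromosporine was 0.29. Their sums, 3581 and 3182 for NC, 5259 and 4077 for Bromosporine, 3703 and 3174 for DZNep and 5345 and 5755 for Valproate, consist mostly of Tfap2c. The 6 markers of the 2-cell stage summed to 192 and 164 for NC, 5 and 0 for Bromosporine, 130 and 132 for DZNep and 260 and 562 for Valproate. Of the 5 of them tested, 3 were called falling with Bromosporine, 1 falling with OICR and 0 with DZNep or Valproate. The part of these shifts in the changes of the Lefty and streak genes was not tested, and in bulk RNA fewer cells expressing a gene and less RNA per cell cannot be told apart.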

How the data were processed

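RNA was measured in 22 libraries of E14 cells in 11 groups of 2, with groups and numbers read from the sample titles. The deposited values are scores, namely read counts per gene that the authors normalized to a common distribution and rounded, so depth per library is unknown and no count test or interval that needs depth could be had. The submitters' processing notes name bcl2fastq, Bowtie2 2.2.5, RSEM and mm10, and the study's methods, written for its knockdowns, name EDASeq with full-quantile normalization. Such values have the same median (409) in all libraries and hide any change shared by most genes. A second deposited table of the authors' group means was not used, and 0 columns were unmatched.

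The scale was log2(value + 1), and the tool was limma 3.58.1 under R 4.3.3. The filter kept 17275 of 18487 genes, those reaching 10 in 2 or more libraries. A model of 11 group means with 11 residual degrees of freedom was fitted with a trend in eBayes, and P-values (two-sided) were adjusted by Benjamini-Hochberg within each contrast. A call needed an adjusted p under 0.05 and a fold over 2, as in the study. The members and gene lists were chosen with earlier results of these data known. Named genes were all 9 members, the 12 called list genes with the largest change, and the 2 genes most like each member. The fit was tested on simulated data. Alternatives were a pseudocount of 10, no filter, fits of a single compound with NC, a replicate block, median-ratio rescaling, the mean of the other 10 groups as reference, adjustment over all 10 contrasts and leaving out each library.

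Some items that the naming rule took are not reported here. Gene positions, transcripts and 31-base words came from GENCODE M21, and the coding sequences were aligned with biopython 1.88. Promoters came from the RefSeq table, in which 5 of 9 members matched. Scripts ran under Python 3.11.15 with numpy 2.4.6, and plots were drawn with matplotlib 3.10.9.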

Additional observations from a re-analysis of the deposited data

How the results depend on the processing

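No called change of a member or of a listed gene turned in direction under the alternatives. Over the 990 combinations of member, compound and alternative 94 turned in sign, 0 of them called. Lefty1 and Lefty2 with Bromosporine and with DZNep kept their call under 10 of 11 alternatives each and lost it where only the compound and NC libraries were fitted, which leaves few degrees of freedom, with adjusted p of 0.215, 0.199, 0.0670 and 0.0750. In that fit the members called dropped to 0 with Bromosporine, 0 with DZNep and 0 with Valproate, and the calls among the listed genes from 21 to 2. Adjustment over all 10 contrasts left 2 members with DZNep and 0 with Valproate. A pseudocount of 10 gave 2 members with Valproate, Wnt3 being the addition.

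Leaving out 1 library gave 2 to 3 members called with DZNep and 0 with Valproate, and 12 to 22 calls among the listed genes, with 12 without NC replicate 1. Fgf8 and Wnt3 with DZNep each lost the call under 6 of 11 alternatives, and Lefty2 with Valproate under 8.

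The replicate number as a block gave 2 members with Valproate and 36 calls among the listed genes. Under it 6 members varied over the groups, namely Lefty1, Lefty2, Tdgf1, T, Nodal and Fgf8. Tdgf1 with DZNep was then called (limma adjusted p = 0.000450). Deviations of same-numbered libraries from their group means correlated at 0.0535 to 0.298 over 55 pairs of groups, above 0.1 in 51 of them. All were positive, which hints at an effect shared by libraries of the same number. The labels do not say what a number marks, and the requirement set for a pairing, over 0.1 in every pair, was not met, so the fit without the block is the one reported and the values with it are given here. Depth is unknown, and the values of Fgf8, Wnt3 and Mixl1 are near the lower limit of the filter.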
